A study of Mus musculus with 7 samples.

Results

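The genes of the skeletal muscle precursor programme were followed in dissected epithelium of the mouse forelimb bud. The set holds the 9 genes Pax3, Pax7, Lbx1, Myf5, Myf6, Myod1, Myog, Msc and Cdh15, out of 36373 gene names on the array, and every probe whose gene name equals one of these symbols was used. That gave 11 probes, since Pax3 and Lbx1 have 2 each, and 47 spots, since 4 probes are printed 10 times. The tested tissue was the apical ectodermal ridge (AER), the thickened epithelial rim of the bud that secretes growth factors, and the comparison tissue was surface ectoderm of the posterior limb. All embryos were C57/Bl6 at embryonic day 11.5, and the labels name no treatment or mutation. RNA of 3 AER and 4 Ectoderm replicates was labelled with Cy3, 75 ng per array, and hybridised to 1 array each. Each replicate was a pool from 2 to 3 mice, so a p-value measures the spread between pools, and single embryos cannot be told apart.

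Limb muscle is not made by the limb bud itself. Its precursors leave the somites, migrate into the bud under the control of Pax3 and Lbx1, and settle in dorsal and ventral masses beneath the epithelium. There the myogenic basic helix-loop-helix (bHLH) factors Myf5, Myod1, Myog and Myf6 commit them to muscle and turn on contractile genes by binding short DNA motifs called E-boxes. Neither tissue named in the labels is muscle. In bulk RNA, fewer cells of a type and less RNA per cell cannot be told apart.

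Values are processed signals in scanner units, on a linear scale, and differences are log2 values after each array was scaled to its own 75th percentile. That percentile lay between 341 and 563 units on AER arrays and between 257 and 444 on Ectoderm arrays. The share of probes well above background was 47.6% to 54.1% in AER, against 47.7% to 49.9% in Ectoderm, with 0 probes saturated. Across genes, which are not independent replicates, arrays correlated at r = 0.980 to 0.988 within AER, 0.985 to 0.995 within Ectoderm and 0.946 to 0.968 between the groups. Ectoderm replicates 2 and 4 were the closest pair at 0.995. Of 20823 genes tested with limma's moderated test, 8.65% were lower and 7.03% higher in AER at an adjusted p under 0.05, and the median gene differed by -0.08. The number of arrays limits the precision.

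Transcripts of this programme were present on the Ectoderm arrays and low or at background on the AER arrays. Of the 9 genes, 7 exceeded background clearly on 3 or more of the 7 arrays and could be tested. All of these 7 were lower in AER, against 8.65% of all genes tested, and their AER and Ectoderm arrays did not overlap, against 17.8% of all genes lower without overlap. So were the 9 probes tested, against 8.02% of all probes. This count is a description, since for 5 of the 7 the AER arrays alone would not have passed the filter. The other 2 genes, Myf5 and Myf6, were at background on every array. Per array, 2, 5 and 5 of the 9 genes were above background on AER replicates 1, 2 and 3, against 7, 7, 6 and 7 on Ectoderm replicates 1 to 4. The plot of signals by array shows the gap for each probe.

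**Figure D1:**
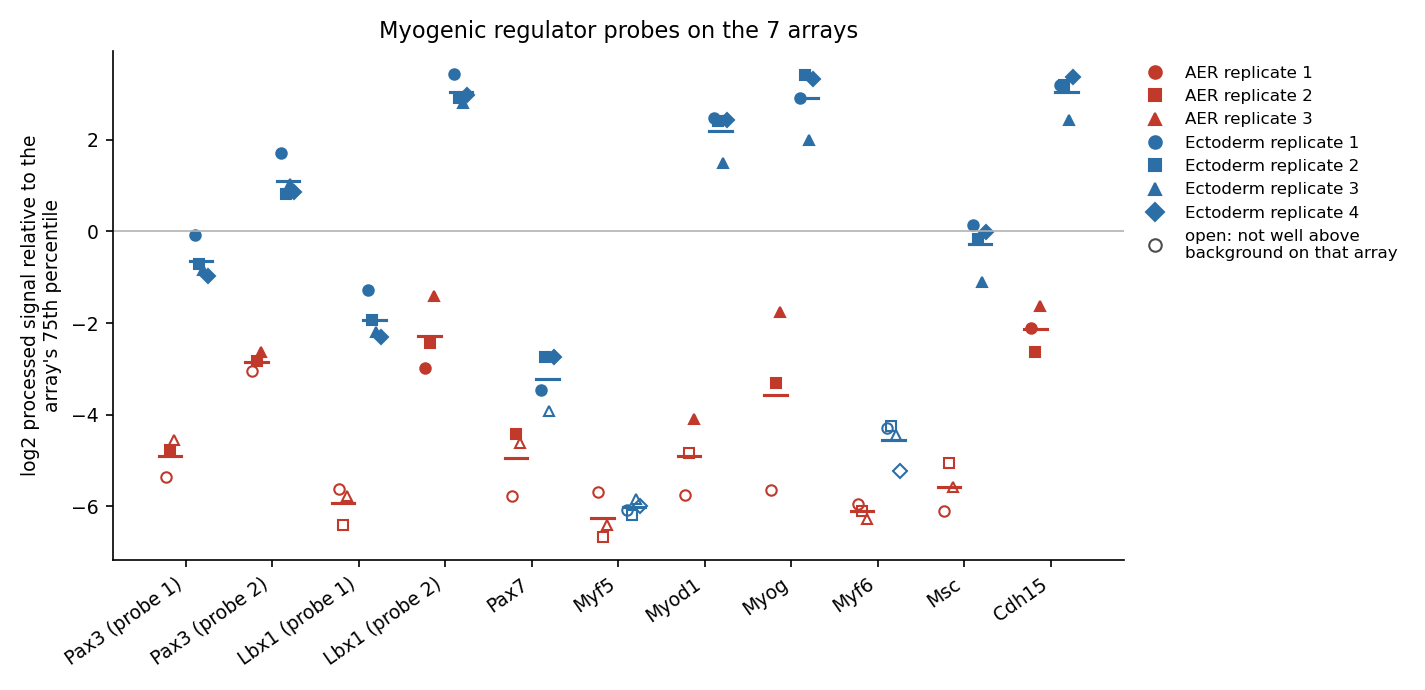
Log2 processed signal relative to the 75th percentile of each array (vertical axis) for the 11 probes (horizontal axis), with AER arrays in red on the left and Ectoderm arrays in blue on the right of each pair. Bars are group means and open symbols were not well above background; the groups lie apart for every probe except that of Myf5, levels are to be compared within a probe only, and probe 1 is the dimmer one of Pax3 and of Lbx1.

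Pax3 encodes a paired-box transcription factor that marks muscle precursors in the dermomyotome and is needed for their migration into the limb. Its brighter probe lies at chr1:78099294-78099353 and its dimmer one at chr1:78099476-78099535, both on the minus strand of mm9, the build named in the file headers. Which exon or UTR a probe falls in was not determined, as no mm9 annotation was used here. Bases 31 to 60 of both are shown because the pair reports on neighbouring stretches of 1 gene, with the polyadenylation hexamer AATAAA in capitals where it is complete.
Pax3 brighter probe: gaatcttctcagaaacaaaacAATAAAaaa
Pax3 dimmer probe: gtattaaatatgacattgtcagcctgtagc
The brighter probe read 41.0, 78.8 and 63.6 units on AER replicates 1, 2 and 3, against 1341, 779, 526 and 631 units on Ectoderm replicates 1, 2, 3 and 4. AER replicate 1 was not above background, and Ectoderm replicate 1 was the highest of the 7. The log2 level averaged -2.84 ± 0.21 in AER (SD, n = 3) and 1.11 ± 0.41 in Ectoderm (SD, n = 4). Pax3 was 15.4-fold lower in AER (adjusted p = 2.86e-05, limma; 95% CI 10.6 to 22.5). It was 8.46-fold lower with normexp, a background correction that keeps dim signals from falling near 0. Here it was used with an offset of 50 units added to every signal, which by construction shrinks the folds of dim genes. The dimmer probe read 8.35, 20.6 and 16.6 units on the AER arrays, of which replicate 2 alone was above background, against 388, 273, 142 and 177 units on the Ectoderm arrays. It gave a log2 difference of -4.25, beside -3.95 for the brighter probe, and their intervals overlap.

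Lbx1 encodes a homeobox factor of the migrating limb muscle precursors. Its brighter probe lies at chr19:45307178-45307237 and its dimmer one at chr19:45308588-45308647 (mm9, minus strand). Bases 31 to 60 are shown for the same reason, with AATAAA in capitals.
Lbx1 brighter probe: tccgataAATAAAgtctttgccattttact
Lbx1 dimmer probe: ggcagatcgcgaccaaattgcgcagcagct
The brighter probe read 42.9, 104 and 149 units on the 3 AER arrays, against 4435, 3359, 1787 and 2719 units on the 4 Ectoderm arrays. All 7 readings were above background, so the AER level is measured and not only bounded. Lbx1 was 39.6-fold lower in AER (adjusted p = 3.72e-05, limma; 95% CI 22.8 to 68.6) and 20.4-fold lower with normexp. The dimmer probe was at background on the AER arrays, at 6.95, 6.59 and 7.21 units, against 169, 116, 55.9 and 70.4 units on the Ectoderm arrays, which makes it at least 5.59-fold lower (adjusted p = 5.0e-05 over probes). Such a bound sets each AER array to its dimmest signal called well above background, 22.5, 17.4 and 20.1 units on replicates 1, 2 and 3. Some brighter readings were not called above background, such as Pax3 at 41.0 units on AER replicate 1. A bound thus holds only for this floor and leaves out the Ectoderm spread. As with Pax3, Ectoderm replicate 1 was the highest array on both Lbx1 probes.

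Pax7 encodes the sister factor of Pax3, known for marking the later progenitors that become satellite cells. Its probe at chr4:139294364-139294423 (mm9, minus strand) read 6.20, 26.1 and 16.1 units on the AER arrays, against 36.9, 66.9, 16.9 and 51.9 units on the Ectoderm arrays. AER replicate 2 was the single AER array above background, and Ectoderm replicate 3 was not above background. After scaling the groups did not overlap, but the gap between AER replicate 2 at -4.43 and Ectoderm replicate 3 at -3.92 was smaller than the spread within Ectoderm, 0.59 (SD, n = 4). Pax7 was 3.30-fold lower in AER (adjusted p = 0.0208, limma; 95% CI 1.76 to 6.22) and 1.44-fold lower with normexp (adjusted p = 0.0405). This is the least firm of the 7 calls. The adjusted p was 0.0524 without AER replicate 1, 0.0568 without Ectoderm replicate 2, 0.0572 without Ectoderm replicate 4 and 0.0948 in the authors' deposited log2 values.

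Myod1 and Myog encode the bHLH factors of commitment and of differentiation, and both lay far below their Ectoderm level on the AER arrays. The Myod1 probe, printed 10 times at chr7:53633956-53634015 (mm9, plus strand), averaged 6.30, 19.7 and 22.9 units on the AER arrays. It averaged 2285, 2353, 718 and 1865 units on the Ectoderm arrays. On AER replicates 1, 2 and 3, 0 of 9, 3 of 10 and 5 of 8 usable spots were above background, whereas all 10 were on every Ectoderm array. Spots of this probe scattered by 0.42, 0.65 and 0.15 on the log2 scale on the AER arrays (SD between spots), against 0.0584 to 0.0693 on the Ectoderm arrays. Myod1 was 137-fold lower in AER (adjusted p = 2.36e-05, limma; 95% CI 73.2 to 257), and 23.8-fold lower with normexp. Genes with at least as low a fitted difference made up 0.0384% of those tested, and 0.668% were at least as low as Pax3. Both shares rest in part on AER readings at background, so they are not measured positions.

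Myog was read at chr1:136188874-136188933 (mm9, plus strand). Its 10 spots averaged 6.80, 57.1 and 116 units on the AER arrays, against 3067, 4701, 1028 and 3477 units on the Ectoderm arrays. The AER arrays themselves disagreed, with 0 of 10 spots above background on replicate 1 and 10 of 10 on replicates 2 and 3. The AER spread was accordingly 1.96 (SD of log2, n = 3), against 0.65 in Ectoderm (n = 4). Myog was 89.2-fold lower in AER (adjusted p = 0.000835, limma; 95% CI 25.5 to 312) and 28.6-fold lower with normexp. The log2 difference of -6.48 became -5.44 without AER replicate 1 and -7.38 without AER replicate 3. Bases 31 to 60 of the Myod1 and Myog probes are shown since they carry the 2 widest differences of the set.
Myod1 probe: gtttgtttgttttttcatgcggctcacagc
Myog probe: tgtttattgttttgtgtgttgtttgtaaag

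Myf5 and Myf6, the other myogenic bHLH genes, are neighbours on chromosome 10 and gave no measurable level. The Myf5 probe at chr10:106919974-106920033 (mm9, minus strand) read 6.66, 5.54 and 4.67 units on the AER arrays, against 6.05, 6.13, 4.48 and 5.40 units on the Ectoderm arrays, and 0 of its spots were above background on any of the 7 arrays. Its last 30 bases are shown because of their composition, with AATAAA in capitals.
Myf5 probe: aaatgtactattattatcAATAAAatattt
Of its 60 bases 85% are A or T, against a median of 56.7% over all probes. Only 27 probes on the array, or 0.0485%, have as large a share, and 1 of these 27 passed the filter, against 50.8% of all probes. Whether the probe can detect the transcript was not tested, so its readings do not show that Myf5 was absent. The Myf6 probe at chr10:106930237-106930296 (mm9, minus strand) read 5.52, 8.19 and 5.11 units on the AER arrays, against 20.9, 23.4, 11.7 and 9.24 units on the Ectoderm arrays. Its Ectoderm readings were higher throughout, but 0 of 7 arrays were above background, so no fold is given.

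Msc encodes musculin, a bHLH factor known as a repressor of Myod1 activity in muscle precursors. Its probe at chr1:14744315-14744374 (mm9, minus strand) read 4.96, 17.0 and 8.26 units on the AER arrays, against 448, 399, 120 and 345 units on the Ectoderm arrays. No AER array was above background and every Ectoderm array was. With the floor described for Lbx1, Msc was at least 17.5-fold lower in AER (adjusted p = 3.68e-05 for the fitted difference, limma). The fitted fold with normexp was smaller, 5.36. Like Myod1, Msc was read on all 4 Ectoderm arrays and was lowest there on replicate 3.

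Cdh15 encodes M-cadherin, an adhesion molecule of myoblasts and satellite cells. Its probe at chr8:125391031-125391090 (mm9, plus strand) read 79.2, 90.4 and 127 units on the AER arrays, against 3757, 4079, 1388 and 3589 units on the Ectoderm arrays. All 7 readings were above background, as for Lbx1. Cdh15 was 36.2-fold lower in AER (adjusted p = 2.42e-05, limma; 95% CI 22.7 to 57.7) and 18.8-fold lower with normexp. With Lbx1 it is one of the 2 genes of the set with a probe above background on every AER array. A low signal of these 2 probes was thus detected there and was not merely bounded. The dimmer Lbx1 probe was at background on every AER array, and whether the probes read these transcripts alone was not tested.

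**Figure D2:**
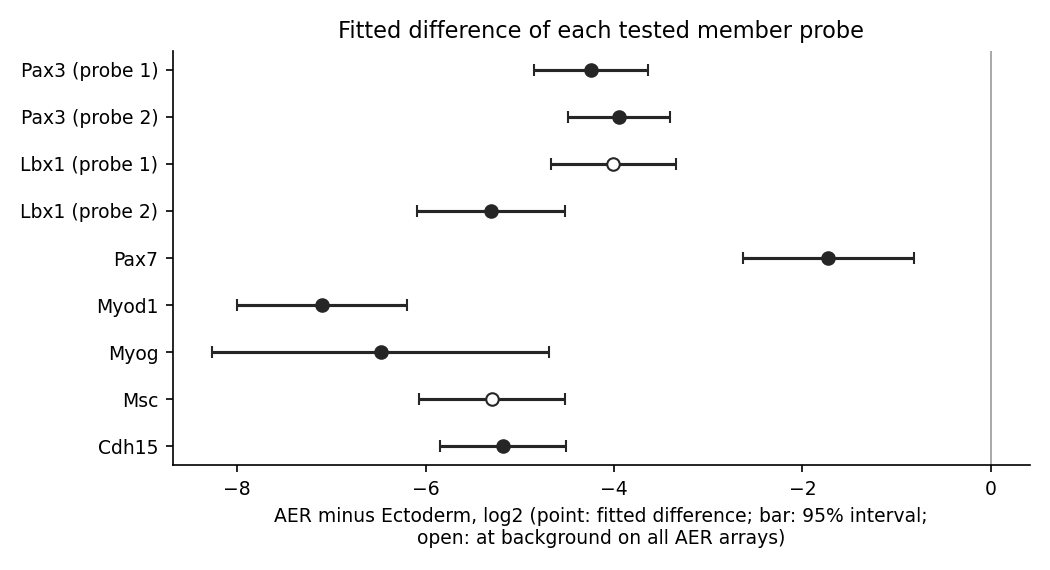
Fitted log2 difference, AER minus Ectoderm (horizontal axis), for the 9 probes tested (vertical axis), with points for the fitted value and bars for its 95% interval; open points, Msc and the dimmer Lbx1 probe, were at background on every AER array, so their position is not a measured size. Filled points of Pax3, Pax7, Myod1 and Myog had some AER arrays at background, so their positions rest in part on such readings. Every interval lies below 0. Myod1 has the lowest value, Myog the widest interval, and Pax7 lies nearest to 0.

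Among the fitted differences of the 20823 genes tested, those of Lbx1 and Cdh15, which were read above background on all 7 arrays, ranked 43rd and 51st from the lowest. Their log2 differences were -5.31 and -5.18 with widely overlapping intervals, so their order is not resolved. The other 5 genes had AER arrays at background, so no measured rank is given for them. The shares given above for Myod1 and Pax3 rest in part on such readings. The interval of Myod1, -8.00 to -6.19, lies below that of Pax3, -4.49 to -3.40, and that of Pax7, -2.64 to -0.81, but the differences between genes were not tested. Within the rows of the slide the direction was the same for these 7 genes. On row 1, with AER replicate 1 and Ectoderm replicates 1 to 3, Myod1 differed by -7.88, Myog by -8.42 and Pax3 by -4.24. AER replicate 1 was not above background for any of these genes, so their row 1 differences are not measured sizes. On row 2, with AER replicates 2 and 3 and Ectoderm replicate 4, Myod1 differed by -6.90, Myog by -5.86 and Pax3 by -3.60. Myod1 was not above background on AER replicate 2, so its row 2 difference is not a measured size either. Each row has 1 lone array in a group, which is assumed to vary like the others. Pax7 was not past the threshold within row 1 (adjusted p = 0.0828).

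The 4 Ectoderm pools did not read equally for these transcripts. The plot of the spread among Ectoderm arrays shows 2 patterns, picked out after the values were seen. Taking the brighter probe of each gene, Ectoderm replicate 1 was highest for 4 of 7, Pax3, Lbx1, Msc (0.41 above the Ectoderm mean) and Myod1 (0.28 above it). It stood 0.57 and 0.61 above the Ectoderm mean on the Pax3 probes and 0.65 and 0.40 above it on the Lbx1 probes (log2). On the probes of Pax7, Myod1, Myog, Msc and Cdh15, Ectoderm replicate 3 stood lowest, at -0.71, -0.72, -0.91, -0.81 and -0.62 from the mean. Over the brighter probes Ectoderm replicate 3 was lowest for 6 of 7, with Pax3 the exception. Among the AER arrays replicate 1 was lowest for 6 of 7 and replicate 3 highest for 5. AER replicate 1 was not above background for Pax3, Pax7, Myod1, Myog and Msc. How often such orders occur over all genes was not computed, so they are not shown to be particular to this set.

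**Figure D3:**
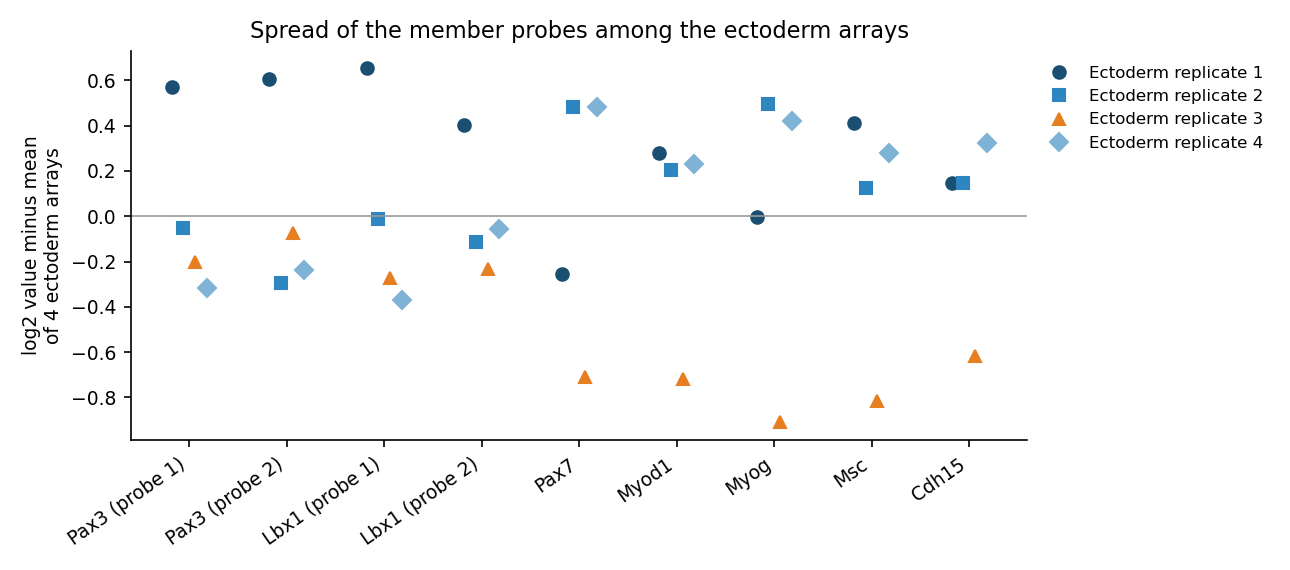
Log2 value of each tested probe minus its mean over the 4 Ectoderm arrays (vertical axis), by probe (horizontal axis), with 1 symbol per Ectoderm replicate. Replicate 1 (dark circles) is highest on the Pax3 and Lbx1 probes, 0.40 to 0.65 above the mean, and also on those of Msc and Myod1. Replicate 3 (orange triangles) is lowest, between -0.91 and -0.62, on the probes of Pax7, Myod1, Myog, Msc and Cdh15. It is also lowest on the brighter Lbx1 probe, at -0.23.

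Ectoderm replicate 3 also differed in markers of other tissues. The mean log2 level of 18 limb mesenchyme genes was 2.83 there, against 3.43 to 3.50 on the other Ectoderm arrays. The mean of 30 myoblast differentiation genes was -0.11, against 0.71 to 1.07. The mean of 15 AER genes was 0.37, against -1.02 to -0.61, and its 75th percentile signal of 257 units was the lowest of the 7 arrays. The part of these in the low readings was not tested. Without Ectoderm replicate 3 all 7 genes were still lower in AER, with log2 differences of -3.97 for Pax3, -5.38 for Lbx1, -1.96 for Pax7, -7.34 for Myod1, -6.78 for Myog and -5.38 for Cdh15. For Msc, at background in AER, a bound alone can be given.

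Genes that act before or beside the 9 were lower in part. Beside the counts of this and each later list, 8.65% of all genes tested were lower and 7.03% higher in AER. Of 19 upstream regulators of the muscle lineage (such as the Meox, Eya and Mef2 families), 18 were tested, 9 were lower, 2 were higher and 7 did not pass, with a median of -0.53 beside -0.08 for all genes. The homeobox gene Pitx3, expressed in differentiating myoblasts, differed by -4.36, and its fold with normexp was 9.69. Meox2, a homeobox gene needed for limb muscle, read 133, 232 and 536 units on the AER arrays, against 27034, 27114, 11239 and 19351 units on the Ectoderm arrays, a difference of -6.54, or -7.13 without AER replicate 3. The homeobox gene Six2 differed by -5.38. The 4 Mef2 genes, muscle cofactors that many other cells also use, were picked after their values were seen and did not pass the test, with differences from -0.34 for Mef2c to 0.33 for Mef2d.

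Of 19 bHLH partners and inhibitors, 16 were tested, 6 were lower, 3 were higher and 7 did not pass, with a median of -0.14. Tcf12, which encodes an E-protein that pairs with the myogenic factors, differed by -1.19, and Hes6, which promotes myogenic differentiation, by -1.52. Twist2, a mesenchymal bHLH gene, differed by -2.63. Hey1, a Notch-induced repressor, was 5.86-fold higher in AER (adjusted p = 0.00156, limma).

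Of 10 genes of precursor migration, 4 were lower, 2 were higher and 4 did not pass, with a median of -0.60. Cxcr4, the chemokine receptor carried by migrating precursors, was at least 11.8-fold lower (adjusted p = 3.80e-05, limma). With normexp the fold was 4.16. Cxcl12, its ligand from limb mesenchyme, differed by -4.57. Hgf, the ligand of Met that releases precursors from the somite, was at least 3.60-fold lower, and 1.84-fold lower with normexp. Epha4, an ephrin receptor, was higher by 1.21 and took the opposite sign, -0.49, when arrays were centred on pan-epithelial genes.

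Genes that myoblasts turn on as they differentiate were mostly lower in AER. Of 32 such genes 30 were tested, 24 were lower, 1 was higher and 5 did not pass. Their median was -3.93, or -3.10 with the 7 genes at background on all AER arrays set to their bounds. Mymk, the membrane protein myomaker that fuses myoblasts, read 40.8, 60.5 and 45.4 units on the AER arrays, against 541, 533, 208 and 496 units on the Ectoderm arrays, a difference of -3.35. Chrnd, a subunit of the muscle acetylcholine receptor, was at least 18.7-fold lower. Tnnt1, slow skeletal troponin T, was 22.9-fold lower and Klhl41, a sarcomere assembly protein, at least 8.27-fold lower. With normexp the fold was 5.26 for Mymk, 6.56 for Chrnd and 3.20 for Klhl41. The single gene of this list that was higher, Rb1, encodes a cell cycle inhibitor used in many tissues and was chosen after its value was seen.

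Of 16 repressors and progenitor maintenance genes, 7 were lower, 3 were higher and 6 did not pass, with a median of -0.55. Over all genes tested 8.65% were lower and 7.03% higher. The receptor gene Notch2 differed by -1.09 and Sox9, better known from cartilage, by -2.65. Sox8, a repressor of myoblast differentiation, was at least 5.74-fold lower, and 2.20-fold lower with normexp. Jag2, a Notch ligand that is also an AER gene, was higher by 1.80. Sox9 and Jag2 stand in other lists too, so their values do not speak for muscle cells alone.

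**Figure D4:**
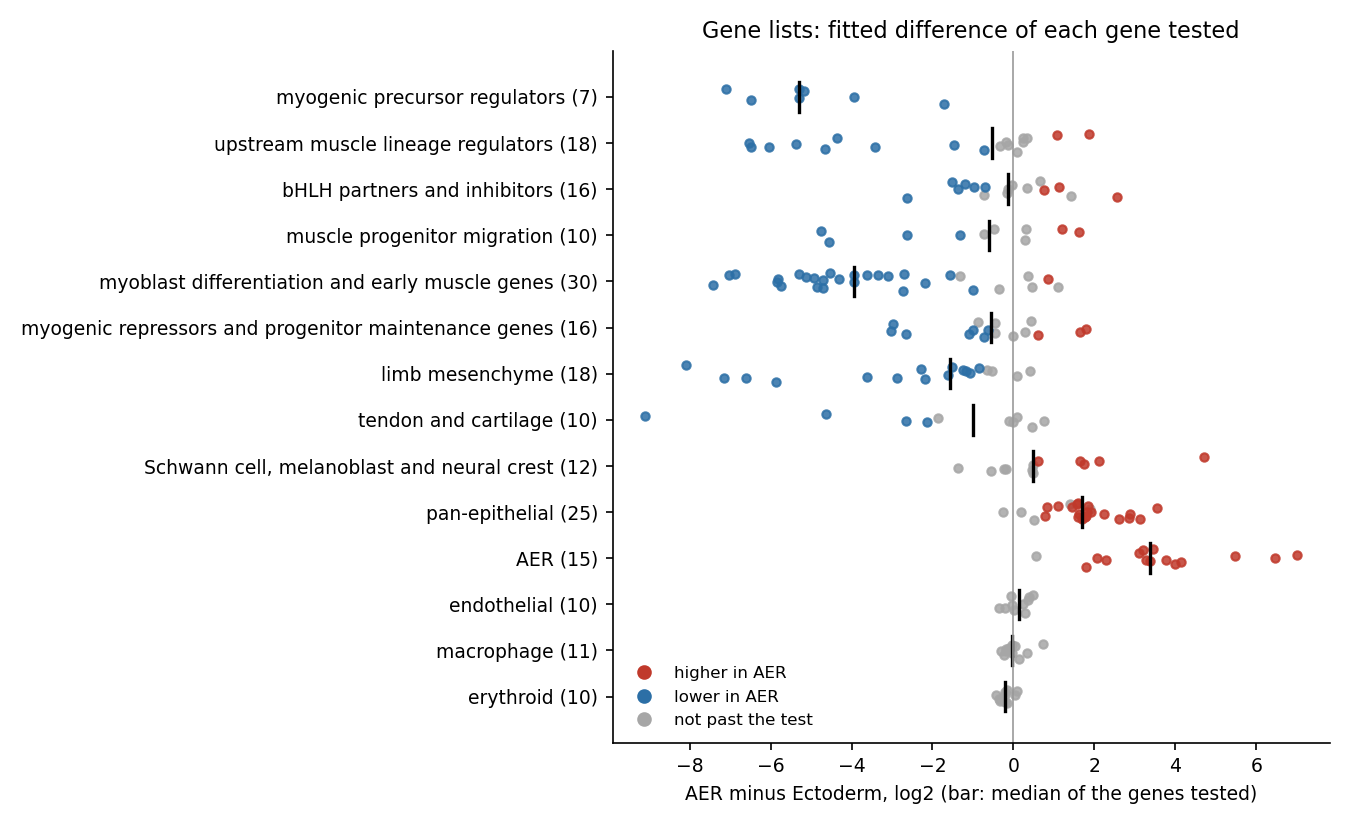
Fitted log2 difference, AER minus Ectoderm (horizontal axis), of each tested gene of 14 groups (vertical axis, with the number tested), in red where higher, blue where lower and grey where not past the test; black bars are medians. All 7 tested myogenic regulators lie between -7.10 and -1.72, the differentiation genes have a median of -3.93, and the endothelial, macrophage and erythroid genes are grey throughout.

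Limb mesenchyme genes were mostly lower in AER, as were some tendon and cartilage genes, against 8.65% of all genes tested. Of 18 limb mesenchyme genes 14 were lower, 0 were higher (also 0 at an unadjusted p under 0.05, limma) and 4 did not pass, with a median of -1.56. Their summed level, relative to the 75th percentile, was 210 to 239 on AER arrays, against 397 to 641 on Ectoderm ones. The collagen gene Col1a1 differed by -3.61 and the proteoglycan genes Lum and Dcn by -8.09 and -7.15. Osr2, a mesenchymal transcription factor, was at least 28.1-fold lower. With normexp the folds of Lum, Dcn and Osr2 were 116, 38.9 and 9.17. Of 10 tested tendon and cartilage genes 4 were lower, 0 were higher (1 at an unadjusted p under 0.05, limma) and 6 did not pass. Their median was -0.99, or -0.51 with genes at background on all AER arrays set to their bounds. Scx, a tendon precursor gene, differed by -4.62. The cartilage genes Col2a1, Sox5, Sox6 and Acan, picked after their values were seen, did not pass, at 0.09, -0.01, 0.76 and -0.11. Summed over the 7 tested myogenic regulators, the level was 0.550 to 1.28 on AER arrays, against 21.8 to 37.6 on Ectoderm ones. The part of these markers' tissues in the myogenic differences was not tested.

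Epithelial markers ran the other way. Of all genes tested, 7.03% were higher and 8.65% lower in AER. Higher in AER were 20 of 25 pan-epithelial genes, against 0 lower (also 0 at an unadjusted p under 0.05, limma). Their summed level was 313 to 325 on the AER arrays, against 116 to 162 on the Ectoderm arrays. Each was above background on at least 1 Ectoderm array, so markers of the labelled epithelium were read in both groups. Of 15 tested AER genes 14 were higher, and their summed level was 350 to 450 on the AER arrays, against 45.6 to 80.0 on the Ectoderm arrays. With arrays centred on the pan-epithelial genes, which moved the median of all genes to -1.78, Myod1 differed by -8.79 and Pax7 by -3.42. This centring moves every gene down in AER, so a gene that was already lower could not change direction under it.

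Among markers of vascular and blood cells, 0 of 10 endothelial, 0 of 11 macrophage and 0 of 10 erythroid genes passed limma's test. At an unadjusted p under 0.05, 1 endothelial and 1 macrophage gene were higher and 2 erythroid genes were lower in AER. The medians of these lists were 0.13, -0.04 and -0.20. The endothelial sums were 37.2 to 51.0 on AER arrays, against 32.7 to 42.2 on Ectoderm ones. Among 12 tested Schwann cell, melanoblast and neural crest genes, 5 were higher in AER and 7 did not pass the test. Over all genes tested 7.03% were higher. At an unadjusted p under 0.05 (limma), Sox10 was lower by -1.38 and Mitf higher by 0.46, both picked after their values were seen. Among the 5 higher were Dct, a pigment cell enzyme, by 4.71 (5.37 without Ectoderm replicate 3, and 2.11 with normexp), and Ngfr, a neurotrophin receptor, by 2.12. Of the Ectoderm arrays, Dct was above background on replicate 3 alone, so its difference is not a measured size. Of the other 3 higher genes, Tfap2b turned to -0.0504 with arrays centred on pan-epithelial genes and Zic1 to -3.12 with the mean of its probes, which disagree. A further 8 genes of that list did not pass the filter on low signals.

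The genes whose values over the 7 arrays ran closest to the mean of the 7 tested regulators were found by Pearson's r. This is a description over 7 arrays that fall into 2 groups. A gene lower in AER by much more than its spread within the groups thus scores high, whatever the size of its difference. The 8 closest with a RefSeq symbol were Smoc2 (0.999), Fst (0.999), Tnnc2 (0.998), Dio3 (0.998), Mrln (0.998), Nsg2 (0.998), Fgfr4 (0.997) and Dlk1 (0.997). Fst, which encodes the myostatin and activin antagonist follistatin, read 4.85, 20.1 and 23.2 units on the AER arrays, against 2008, 1738, 601 and 1453 units on the Ectoderm arrays. It shared the low reading of Ectoderm replicate 3 and was 120-fold lower in AER (adjusted p = 3.80e-05, limma; 95% CI 58.1 to 246), with 19.4-fold under normexp. Fgfr4, a growth factor receptor of muscle precursors, differed by -5.29 and Mrln, the calcium pump regulator myoregulin of skeletal muscle, by -6.72, or -5.98 without AER replicate 1. Tnnc2, fast skeletal troponin C, differed by -5.42, and Dio3 by only -1.61. With normexp the differences were -3.75 for Fgfr4, -4.63 for Mrln, -4.34 for Tnnc2 and -0.59 for Dio3. Among the regulators themselves, r with the mean of the others was 0.890 for Pax7 and 0.998 for Myod1.

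The promoter table used here, RefSeq on GRCm38.p6, held 4 of the 9 genes, Myog, Cdh15, Pax7 and Myf5. It was searched on both strands, over 250 bases before the start of the gene, for the E-box CANNTG and for a MEF2 core written CTANNNNTA or, on the other strand, TANNNNTAG. The Myog and Cdh15 windows are shown because both genes were lower in AER and are active in differentiating myoblasts, with motif matches in capitals. They lie at chr1:134289754-134290003 and chr8:122848124-122848373 on GRCm38.p6, both on the plus strand.
Myog promoter: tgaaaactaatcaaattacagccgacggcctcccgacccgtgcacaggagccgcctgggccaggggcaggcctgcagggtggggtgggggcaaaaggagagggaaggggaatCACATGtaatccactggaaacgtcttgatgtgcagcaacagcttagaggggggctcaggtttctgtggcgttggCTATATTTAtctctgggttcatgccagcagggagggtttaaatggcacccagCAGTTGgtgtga
Cdh15 promoter: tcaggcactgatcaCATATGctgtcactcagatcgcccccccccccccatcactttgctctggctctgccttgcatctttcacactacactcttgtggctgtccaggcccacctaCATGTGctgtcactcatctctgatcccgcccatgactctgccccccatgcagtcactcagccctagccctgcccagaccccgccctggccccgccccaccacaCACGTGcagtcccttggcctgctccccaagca
The Myog window held 2 E-boxes, at -138 and -12 from the start, and 1 MEF2 core at -64. The Cdh15 window held 3 E-boxes and 0 MEF2 cores. The Myf5 window held 0 E-boxes and 2 overlapping matches to the MEF2 core, and that of Pax7 held neither. Over all 32851 promoter windows of this length, 66.2% held an E-box, 18.96% a MEF2 core and 13.0% both, so E-boxes of this form are common. A match is a string of letters and not a bound site.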

How the data were processed

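RNA of 3 AER and 4 Ectoderm pools was read on 7 one-colour Agilent arrays, all on 1 slide with 1 scan time, per the file headers. The deposited processed signal is an intensity in linear units that Agilent Feature Extraction 10.7.3.1 corrected for background and for trends across the array, per the file headers. The deposited mean spot and local background signals are intensities before that step. The other deposited columns used are flags per spot, per the file headers. The authors' deposited table holds log2 values whose sorted values differ between columns by at most 0.00221; limma, without a version, is named in the submitters' processing notes.

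Control, uneven and outlying spots were left out, and spots of a probe were averaged on log2. Values were set relative to the 75th percentile of the 55681 non-control probes on the same array. A probe was kept if well above background on at least 3 of 7 arrays, which meant most of its spots, and 28276 were. A gene is its probe with the highest mean. Groups were compared with limma 3.58.1 (lmFit, eBayes, two-sided) under R 4.3.3, reading tables with data.table (version 1.17.8), with Benjamini-Hochberg adjustment over 20823 genes, or over all kept probes for single probes, at 0.05. "At least" folds set background arrays to the dimmest signal called above background on the same array. Some brighter signals were not called above background, so these folds hold for that floor only and are not strict limits. Gene names came from RefSeq through accession (26300 probes), symbol (2044) or older symbol (355), and otherwise from the files (26982); no mm9 annotation was used. In simulated data for this comparison with 20815 genes, differences of 2, 4 and 6 (log2) were recovered in 47, 49 and 50 of 50 genes, those of 1 in 18 of 50, and 5.75% of calls were false. That simulation drew independent normal noise, with 50 genes changed per size and no background floor, so its rates need not hold for these data. Files were handled with Python 3.11.15, pandas 2.3.3, numpy 2.4.6 and matplotlib 3.10.9.

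The 9 genes and the gene lists were chosen with earlier results of these data known. Named are all 9 genes, up to 4 genes with the smallest p of each list in which any gene passed the test, and the 8 genes closest to the mean of the set; for other genes the text says that their values were known when they were picked. Some genes that this rule or the lists hold are not reported here by name, but stay in the counts. Alternatives covered background correction, normalization, filters, probe choice, slide rows, replicate numbers, array weights and single arrays. Same-numbered AER and Ectoderm arrays deviated together with r = -0.03, 0.19 and 0.13, against -0.26 to 0.18 for arrays with different numbers. For AER replicates 2 and 3 the same-numbered Ectoderm array was the closest, so these values do not settle whether the numbers are pairs. The main fit did not take them as pairs, and a fit with the replicate number as a block is given below.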

Additional observations from a re-analysis of the deposited data

Results flagged for a closer look

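In 4 of 55 genes examined for an Ectoderm array far from the other 3, Dixon's gap ratio exceeded its 95% critical value, and chance gives about 1 in 20. Ectoderm replicate 3 was far from the rest for 3 of them. There Myod1 stood at 1.48 (log2, relative to the 75th percentile), against 2.41 to 2.48 on the other Ectoderm arrays. Klhl41, the sarcomere assembly gene, stood at -2.36 there, against -1.13 to -0.95. Dct, the pigment cell gene, stood at -3.35, against -6.12 to -5.91, and was above background on that Ectoderm array alone. Mkx, a tendon gene, stood at 2.19 on Ectoderm replicate 1, against 1.12 to 1.17 on the others.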

How the results depend on the processing

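Across 24 alternatives the number of the 9 regulators called lower in AER was 6 or 7, and 6 to 7 with 1 array left out. Pax3, Lbx1, Myod1, Myog, Msc and Cdh15 were lower and past the threshold in every alternative that gave them a value. Centring on pan-epithelial genes is among these, but it moves every gene down in AER and so could not change their direction. Pax7 lost the call in 8 of 22, with adjusted p up to 0.0948: without AER replicate 1, Ectoderm replicate 2 or Ectoderm replicate 4, with those 2 Ectoderm replicates averaged (0.0570), without the filter, within slide row 1, and in the deposited values and the same processing redone. It was not tested where a probe had to be above background on all arrays of a group. Without the filter Myf6 was called in its place (adjusted p = 0.0115) from readings at background. The 3264 genes differing between AER and Ectoderm became 2197 to 3273 with 1 array left out, 19960 with centring on pan-epithelial genes, 650 within slide row 1 and 1388 within slide row 2, where fewer arrays were fitted. With the replicate number as a block, which leaves out Ectoderm replicate 4, 2441 genes differed, the 7 regulators remained lower, and no other call of theirs changed. With the slide row as a block 2480 did, and with Ectoderm replicates 2 and 4 averaged 2265. Of 47 other named genes 23 moved by over 1.5 times with normexp, 47 keeping their direction and call. Signs reversed for Epha4 (-0.49) and Tfap2b (-0.0504) under epithelial centring, which moves every gene down in AER. Neither passed the test there (adjusted p = 0.0906 and 0.862, limma). Zic1 reversed (-3.12) under the mean of its probes, and why these disagree was not tested. Signals near background limit the AER folds.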
